A study of Homo sapiens with 4 samples.

Results

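Star miRNAs are the minor products of miRNA hairpins, written with an asterisk in the older naming scheme. On the human miRNA array used here, 170 of 939 miRNAs carried an ID that started with hsa- and ended with an asterisk, and all 170 are described. The array held 851 human miRNAs in all, of which 681 had no asterisk, and 88 viral miRNAs. Total RNA came from the colon cancer cell line HCT116, which is p53 wild type, and the label was Cy3. The high migratory cells (MG cells) had crossed a transwell membrane towards serum in repeated rounds of selection, and the low migratory cells (non-MG cells) had stayed on its upper side. There were 2 arrays of each, without any other treatment. Both groups are selected subpopulations of 1 line, and nothing in the labels shows that the 2 arrays of a group came from separate cultures, so the spread between them may be technical.

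Dicer cuts a hairpin precursor into a short duplex of its 5′ arm (5p) and its 3′ arm (3p). One strand, the guide, is kept by an Argonaute protein and pairs with target mRNAs through its seed, and the other strand, the passenger or star strand, is mostly degraded. The strand whose 5′ end is less tightly paired tends to be kept, and guides often begin with U. Some star strands are nevertheless loaded and act on targets of their own, since their seed differs from that of the guide. The levels of both arms of a hairpin therefore report on its transcription and on how its strands are sorted.

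The star strands detected on at least 1 array, their guides and the hairpins they come from carry the results below. The mature sequences were taken from RefSeq (GRCh38.p14) for 6 of the 9 detected star miRNAs and are printed 5′ to 3′ with the seed (bases 2 to 8) in capitals. MIR29B1 lies on chromosome 7, MIR7-1 within HNRNPK on chromosome 9, MIR17 within the non-coding host gene MIR17HG on chromosome 13, MIR16-2 within SMC4 on chromosome 3 and MIR1914 within UCKL1 on chromosome 20. The mature miR-9* is the same from MIR9-1, MIR9-2 and MIR9-3. The star strands of MIR31, MIR21 and MIR221 were also detected and are described by name.
miR-29b-1* (hsa-miR-29b-1-5p): gCUGGUUUcauauggugguuuaga
miR-29b, its guide (hsa-miR-29b-3p): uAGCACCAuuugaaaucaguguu
miR-7-1* (hsa-miR-7-1-3p): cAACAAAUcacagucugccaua
miR-7, its guide (hsa-miR-7-5p): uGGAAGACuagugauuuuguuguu
miR-17* (hsa-miR-17-3p): aCUGCAGUgaaggcacuuguag
miR-17, its guide (hsa-miR-17-5p): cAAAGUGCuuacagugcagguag
miR-16-2* (hsa-miR-16-2-3p): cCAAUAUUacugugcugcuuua
miR-9* (hsa-miR-9-3p): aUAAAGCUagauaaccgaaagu
miR-1914* (hsa-miR-1914-3p): gGAGGGGUcccgcacugggagg

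The printed star and guide seeds show that the arms of a hairpin pair with different target letters. None of the 6 star seeds was shared with any of the 112 other detected miRNAs whose sequence was at hand. Of the 9 detected star miRNAs, 7 were the 3p arm and 2, miR-29b-1* and miR-221*, were the 5p arm. The position of a star strand within its precursor is shown for an example of each kind, with the star strand in capitals. For the 5p case, the hairpin of MIR29B1 (chr7:130877459-130877539, minus strand, GRCh38.p14) holds the star at positions 10 to 33, and for the 3p case, the hairpin of MIR17 (chr13:91350605-91350688, plus strand) holds it at positions 51 to 72, counted from the 5′ end of the hairpin.
MIR29B1: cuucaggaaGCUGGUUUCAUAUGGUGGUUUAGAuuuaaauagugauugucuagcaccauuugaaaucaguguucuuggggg
MIR17: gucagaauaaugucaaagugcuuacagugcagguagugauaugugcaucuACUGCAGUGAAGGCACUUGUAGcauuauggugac

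The first base differed between stars and guides. Of the 84 star miRNAs that had a detected guide and a resolved arm, 75 had a RefSeq sequence, and 9.33% of these began with U, whereas 45.3% began with C and 36% with A. Among their 73 guides, 66 had a sequence, and 68.2% began with U. The median length was 22 bases in both sets, and the median GC content was 50% for the stars and 43.5% for the guides. These are properties of the strands on the array, and they were not tested against the signals.

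The 4 arrays shared 1 slide, non-MG in row 1 and MG in row 2, and a row effect cannot be told apart from the group. No spot was saturated, and 8.71% to 11.1% of the spots of an array were well above background. Of the markers used to check the label, all 5 miRNAs of the epithelial miR-200 family were detected on all 4 arrays (summed signal 619 to 770). Markers of intestine (0 of 3), blood (0 of 4), muscle (0 of 4) and liver (0 of 1) were detected on no array, and miR-145 of the stromal list was detected on 3 arrays, with a summed signal of that list of 0 to 8.76. Of the neural list 1 of 2 was detected, miR-9, at 6.60 on the second non-MG array.

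Few star miRNAs were detected in either group. A miRNA counts as detected when its value in the authors' table is above the 0.1 given to undetected miRNAs, which requires a probe above 3 times its error. The non-MG arrays detected 7 (4.12%) and 5 (2.94%) of the 170 star miRNAs, and the MG arrays detected 8 (4.71%) and 4 (2.35%). The groups overlapped, and in each group the replicate 1 array detected more star miRNAs than the replicate 2 array. The 681 human miRNAs without an asterisk were detected in 18.5%, 17.2%, 18.2% and 16.6% on the same arrays.

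The error of the probes moved with these counts. Its median was 0.562 and 0.749 in the non-MG group and 0.615 and 0.903 in the MG group, so both replicate 2 arrays had the higher threshold. With the highest error of a probe on any of the arrays as a common threshold, a setting chosen after seeing the data, the arrays detected 5, 5, 4 and 4 star miRNAs. Star miRNAs made up 0.643% and 0.543% of the summed human signal in non-MG cells and 0.590% and 0.440% in MG cells.

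Over the 4 arrays together, 9 star miRNAs (5.29%) were detected at least once, 4 (2.35%) on every array, 5 on some arrays and 161 on none. Among the other human miRNAs, 130 (19.1%) were detected at least once and 111 (16.3%) on every array. A signal of at least 50 on any array, the minimum that the study applied, was reached by 1 star miRNA (0.588%), miR-31*, and by 56 other human miRNAs (8.22%). The 4 star miRNAs on every array were miR-31*, miR-29b-1*, miR-21* and miR-7-1*. The 5 others were miR-17*, miR-9*, miR-16-2*, miR-221* and miR-1914*.

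**Figure D1:**
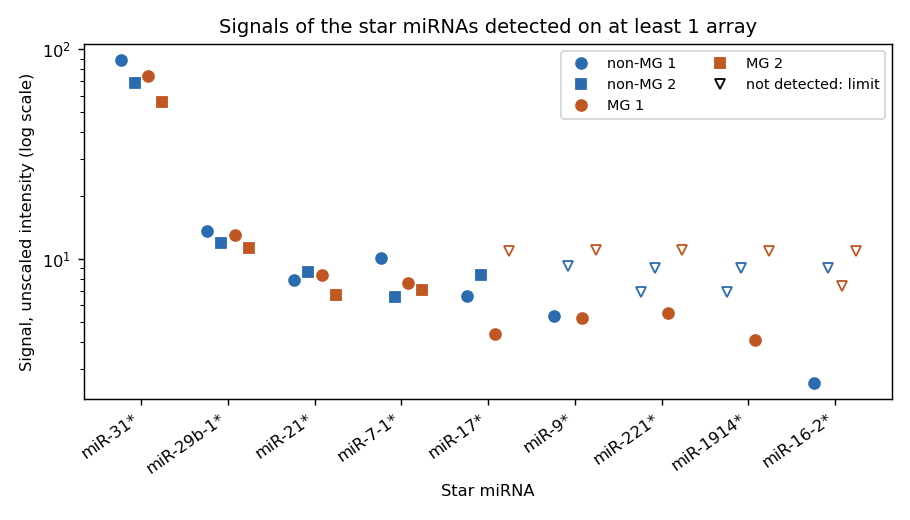
Unscaled intensity (log axis) of the 9 detected star miRNAs on each array. Filled points are detected values (circles replicate 1, squares replicate 2; blue non-MG, orange MG), and open triangles mark, for an array without detection, 3 times the summed error of the probes, an upper limit (a single probe above 3 times its own error counts as detection, so detected values can lie below it). miR-31* lies between 56.0 and 88.5, and all other values are at or below 13.5.

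The brightest star strand was that of miR-31, a miRNA that is raised in many colorectal cancers. Its unscaled signals were 88.5 and 69.1 in non-MG cells and 74.3 and 56.0 in MG cells. The higher MG value lay between the non-MG values, so the groups overlapped. Both of its probes passed the threshold on every array, and 13 to 16 of its 16 spots were well above background.

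miR-29b-1* comes from MIR29B1, a member of the miR-29 family that represses collagen and other matrix genes. Its signals were 13.5 and 11.9 in non-MG cells and 13.0 and 11.2 in MG cells. Again 1 MG array fell between the non-MG arrays. Of the 4 probes, 3 passed the threshold on each replicate 1 array and 2 on each replicate 2 array, so these signals sum different probes. Summed over all 4 probes, it read 13.6 and 15.7 in non-MG cells and 13.8 and 13.8 in MG cells.

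miR-21* is the star strand of miR-21, the most abundant oncogenic miRNA of many epithelial tumours. Its signals were 7.90 and 8.67 in non-MG cells and 8.35 and 6.73 in MG cells. Only 1 of its 2 probes passed the threshold on each array, and on the second MG array 0 of 16 spots were well above background.

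miR-7-1* comes from MIR7-1, whose guide miR-7 is known for targeting the EGFR pathway. Its signals were 10.1 and 6.55 in non-MG cells and 7.67 and 7.11 in MG cells. The MG values lay within the range of the non-MG values. As for miR-21*, 1 of 2 probes passed the threshold on each array, and 0 of 16 spots were well above background on the second MG array.

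Detection on some arrays was seen close to the threshold. miR-17*, from the oncogenic miR-17-92 cluster, had signals of 6.65 and 8.41 on the non-MG arrays and 4.37 on the first MG array, and it was not detected on the second MG array. Summed over both probes without the threshold, it read 5.26 and 8.46 in non-MG cells and 3.64 and 2.09 in MG cells. The MG readings were below the non-MG readings, and this difference was not tested. For miR-221* the same sums went the other way, 5.10 and 4.12 in non-MG cells and 8.05 and 6.21 in MG cells. For miR-9*, miR-1914* and miR-16-2* the sums over all probes overlapped between the groups. Among the 115 human miRNAs detected on every array, the groups did not overlap for 55.7%. miR-9*, of a neuronal miRNA, had signals of 5.36 on the first non-MG array and 5.24 on the first MG array. miR-221* (highest signal 5.53) and miR-1914* (4.10) were detected on the first MG array alone, and miR-16-2* (2.57) on the first non-MG array alone. Every detection of these last 4 fell on a replicate 1 array, the arrays with the lower probe error.

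The families fixed for this description differed in their counts. Both star miRNAs of miR-21 and miR-31 were detected on every array, as was 1 of 4 in the miR-29 family. The miR-17-92 group with its paralogs (15 star miRNAs), miR-15 and miR-16 (4), and miR-221 and miR-222 (2) had 1 detected each, on some arrays. In the let-7 family with miR-98, 0 of 8 star strands were detected although all 8 guides were, with a median of their mean signals of 307. The miR-23, miR-27 and miR-24 group also had 0 of 6 (median guide signal 190), miR-200 and miR-141 had 0 of 4 (132), and miR-10, miR-99, miR-100 and miR-125 had 0 of 7 (53.0). The miR-30 family had 0 of 6 detected, miR-34 had 0 of 2, and miR-192, miR-194 and miR-215 had 0 of 2, with no guide detected in the last of these. Among the remaining 108 star miRNAs, of which 30 had a detected guide, 3 were detected.

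Star detection was most frequent where the guide was bright. A guide with the same ID without the asterisk, or without the asterisk and the locus number (25 cases), was on the array for 167 star miRNAs. Of the 33 star miRNAs whose guide had a mean signal of at least 100, 6 (18.2%) were detected. Of the 39 with a guide between 10 and 100, only miR-7-1* was detected (2.56%), and of the 14 with a detected guide under 10, only miR-9* (7.14%). The 81 with an undetected guide had 1 detected star (1.23%), miR-1914*. These are counts with no test, and star and guide share the array and its errors.

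For miR-9 the guide and the star were not seen together. The guide was detected only on the second non-MG array, at 6.60, while the star was detected only on the replicate 1 arrays. Both arms lay near the threshold, so no ratio could be given.

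The ratio of star to guide signal ranged widely between hairpins. Each ratio is between intensities of different probes and is not a ratio of molecules, so it serves for comparing arrays. For miR-31 the star reached 52.7% and 37.6% of the guide signal in non-MG cells and 58.1% and 41.3% in MG cells. Both replicate 1 arrays lay above both replicate 2 arrays, whichever group they belonged to. The means were 45.1% ± 10.7 (SD, n = 2) in non-MG cells and 49.7% ± 11.9 (SD, n = 2) in MG cells.

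For miR-29b-1* the ratio was 8.68% and 9.78% in non-MG cells and 8.56% and 11.3% in MG cells. The star signal in it sums 3 probes on each replicate 1 array and 2 on each replicate 2 array. The guide miR-29b, shared by MIR29B1 and MIR29B2, is the arm with the AGCACCA seed printed above, and the ratio therefore divides by the product of both loci. For miR-7-1* it was 9.08% and 7.46% in non-MG cells and 8.13% and 9.78% in MG cells, again against a guide that more than 1 locus encodes. The groups overlapped for both.

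miR-21* stood at the low end, with 0.481% and 0.554% of its guide in non-MG cells and 0.466% and 0.483% in MG cells. Its guide had the highest mean signal of all guides with a star on the array, 1598. miR-17* had 2.75% and 3.11% in non-MG cells, 2.20% on the first MG array and a limit of 5.97% on the second. The miR-16-2* value was 0.621% of miR-16, and the miR-221* value was 5.54% of miR-221, each from 1 array. miR-16 is also a guide that more than 1 locus encodes. The miR-16-2* value rests on 1 of 4 probes, with 1 of 16 spots well above background.

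**Figure D2:**
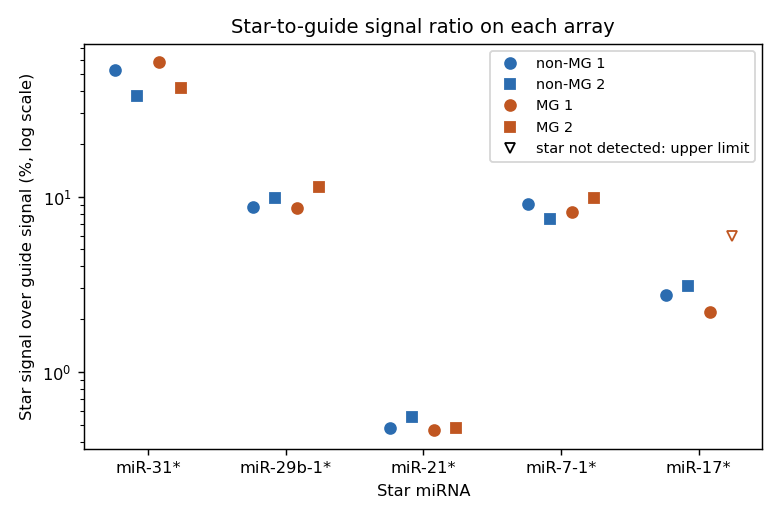
Signal of the star arm as a percentage of its guide on each array (log axis) for the star miRNAs detected on 3 or 4 arrays. Symbols are as for the signals, and the open triangle is an upper limit where the star was not detected. Ratios run from 0.466% for miR-21* to 58.1% for miR-31*, and non-MG and MG arrays overlap for each hairpin detected on all 4.

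Star strands from other loci of the same guides, miR-29b-2*, miR-7-2* and miR-16-1*, were not detected on any array. Their upper limits were 6.72 to 10.8 in unscaled intensity. The probes differ between loci and may differ in sensitivity, so the star strands of these loci were not ordered.

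Limits were computed for undetected star miRNAs whose array name could be settled. This held for 68 with a guide on all 4 arrays, and the limit was 3 times the summed error of the star's probes divided by the guide signal. The highest limit over the arrays ranged from 0.825% for let-7a* to values above the guide itself, with a median of 24.5%. It was below 5% for 17 star miRNAs, below 10% for 24 and below the lowest miR-31* ratio for 45. The probes differ between hairpins, so these counts do not order the hairpins by how much of the star strand is kept.

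The most stringent limits belonged to let-7a* (0.825%), let-7f-1* and let-7f-2* (each 1.17%), miR-100* (1.52%) and miR-29a* (1.69%). Their guides are among the brightest on the array, and let-7 guides are tumour-suppressing miRNAs of differentiated cells. A probe between 2 and 3 times its error was found for 3 of the 68, let-7d*, miR-200b* and miR-183*. Of the remaining undetected star miRNAs, 81 had no settled array name and 12 had one but no guide on all 4 arrays, so no limit is given for them.

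**Figure D3:**
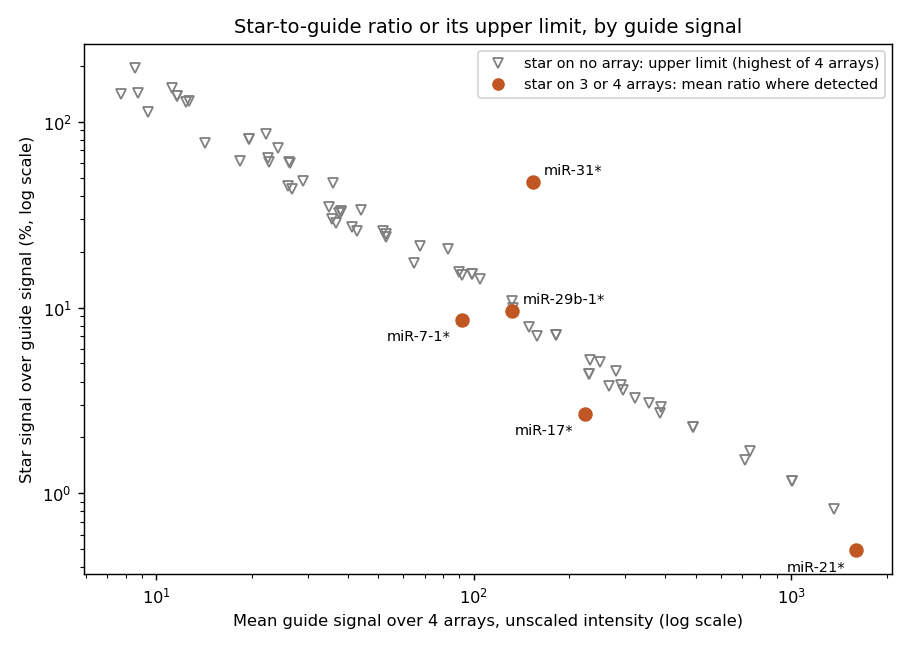
Star-to-guide signal ratio against mean guide signal, both on log axes. Orange points are mean ratios of the 5 star miRNAs detected on 3 or 4 arrays, and grey open triangles are the highest of the 4 arrays' upper limits for 68 star miRNAs detected on none. Each limit is divided by the guide signal, so limits fall by construction as the guide gets brighter. miR-31* lies above the limits of hairpins with a similar guide signal, whereas miR-21*, miR-17*, miR-7-1* and miR-29b-1* lie at or below them. The probes differ between hairpins, so the heights are of intensities and not of molecules.

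No star miRNA passed the test between MG and non-MG cells. After scaling each array to a common 75th percentile, the 115 human miRNAs detected on every array were tested together, of which 20.9% were called at an adjusted p under 0.05. Of the 4 star miRNAs among them, 0 were called, and 0 had an unadjusted p under 0.05. Scaled signals of miR-31* were 78.4 ± 7.75 (SD, n = 2) in non-MG cells and 65.0 ± 11.4 (SD, n = 2) in MG cells. The fold change was 0.825 (95% interval 0.651 to 1.05), with an adjusted p of 0.276 in limma. With the 57 human miRNAs past the signal minimum of 50, of which 24.6% were called, miR-31* had an adjusted p of 0.191 in limma.

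The other 3 had changes closer to 1. miR-29b-1* had scaled signals of 12.7 ± 0.175 (SD, n = 2) in non-MG cells and 12.1 ± 0.978 (SD, n = 2) in MG cells. Its fold change was 0.956 (95% interval 0.696 to 1.31). The 2 arrays of a group summed different numbers of its probes, so these SDs do not give the spread of a fixed set of probes. With all probes summed, its fold change was 0.946. miR-21* had 8.31 ± 1.17 and 7.53 ± 0.970 (SD, n = 2 each), a fold change of 0.907 (0.667 to 1.23). miR-7-1* had 8.25 ± 1.90 and 7.39 ± 0.224 (SD, n = 2 each), a fold change of 0.908 (0.667 to 1.24). Their adjusted p-values in limma were 0.811 for miR-21* and miR-7-1* and 0.924 for miR-29b-1*. With all probes summed, a setting that was not planned, the fold change was 0.925 for miR-21* and 0.845 for miR-7-1*. The latter was about as far from 1 as that of miR-31*.

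The intervals leave room for a fall to about 0.65-fold or a rise to about 1.3-fold, so these values do not show equal levels. limma took them and the p-values almost wholly from a spread pooled over the miRNAs fitted (prior degrees of freedom 131). They hardly measure the spread between a miRNA's own arrays. In the fit of the 57 miRNAs and in that of the ratios below, the prior was infinite, so only the pooled spread was used. All 4 point estimates were below 1, beside 73% of all 115 miRNAs, but with quantile normalization 3 of the 4 were above 1. The median log2 change was -0.14 for the 4 and -0.11 for all 115. The groups did not overlap for 0 of the 4, beside 55.7% of the 115, and 0 of the 4 passed 1.5-fold, beside 11.3%. With 2 arrays against 2, an exact permutation test of a single miRNA cannot give a two-sided p below 0.333.

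The guides of these hairpins were tested in the same fit. miR-31 fell to 0.750-fold in MG cells (adjusted p 0.0186 in limma). miR-17 also fell, to 0.748 (adjusted p 0.00915 in limma). The groups did not overlap for miR-31, miR-17 and miR-221, beside 55.7% of the 115 miRNAs. miR-21 (0.987), miR-29b (0.897), miR-7 (0.838), miR-16 (0.997) and miR-221 (0.836) did not pass the threshold. With any of the 4 arrays left out, the adjusted p of miR-31 in limma rose to between 0.117 and 0.352 and that of miR-17 to between 0.112 and 0.333, and without either non-MG array 0 of the 115 miRNAs were called. That miR-31 passed and miR-31* did not is not a difference between the arms, which the ratio tests.

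The ratio of the minor to the major arm was fitted over the 6 human hairpins with both arms on all 4 arrays, which were the 4 star hairpins and miR-151 and miR-324. The number called was 0 of 6, and 0 had an unadjusted p under 0.05. The log2 change of the ratio was 0.14 for miR-31* (95% interval -0.37 to 0.65), 0.12 for miR-7-1* (-0.47 to 0.71), 0.09 for miR-29b-1* (-0.35 to 0.53) and -0.12 for miR-21* (-0.65 to 0.41). The adjusted p in limma was 0.812 for each of the 4. The direction of these ratios turned for at least 1 array left out in 3 of the 4 hairpins, miR-31*, miR-29b-1* and miR-7-1*.

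**Figure D4:**
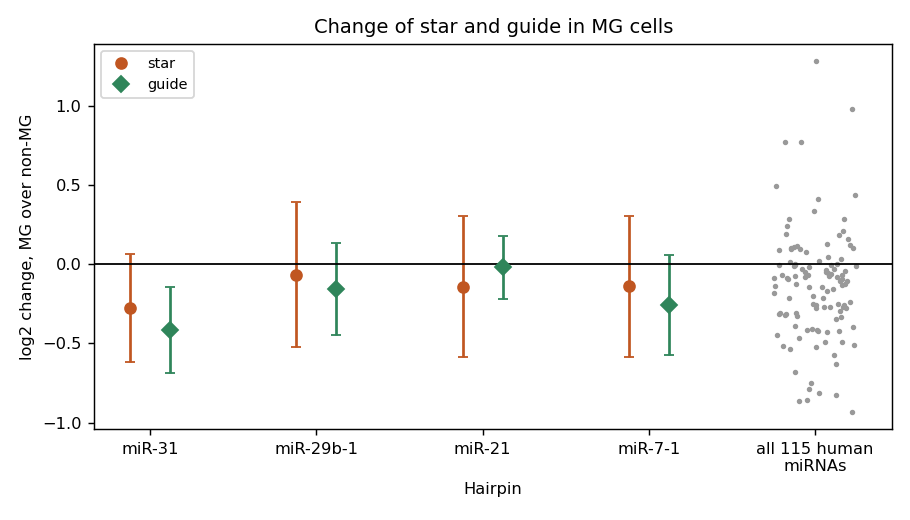
Log2 change of the star (orange circles) and the guide (green diamonds) of 4 hairpins, MG over non-MG, with 95% intervals from limma, and the changes of all 115 human miRNAs detected on every array (grey points, spread sideways at random). The interval of every star includes 0, and that of the miR-31 guide lies below 0.

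The stars of changed guides were looked up next. Of 66 guides of star hairpins in the fit, 19 (28.8%) passed the adjusted threshold, 5 higher and 14 lower in MG cells, beside 20.9% of all 115 miRNAs. None of these 19 calls held without the first or without the second non-MG array. Their hairpins hold 23 star miRNAs on the array, of which 2 (8.70%), miR-17* and miR-31*, were detected, close to the 7 of 77 (9.09%) for all star miRNAs whose guide was in the fit. The 5 guides that rose were miR-23b, miR-27b, miR-24, miR-10a and let-7i, and 0 of their 6 star miRNAs were detected. These rises are array signals, and for miR-10a the paper states that its quantitative PCR did not find sufficient expression in MG or non-MG cells. The largest of the rises was that of miR-23b, with a fold change of 2.43.

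For these hairpins the limits bound the star from above. By the highest limit of the 4 arrays, miR-23b* was at most 20.6% of its guide and miR-27b* at most 17.4%. miR-24-1* and miR-24-2* were each at most 4.40% of miR-24, the guide of both. let-7i* was at most 3.78% of let-7i, and miR-10a* at most 24.8% of miR-10a. A change of these star strands between MG and non-MG cells was not measurable at this signal over background.

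The scanner files also give a total per miRNA, and for most detected star miRNAs it was not the signal of the star. The total equalled the sum of the own probes for miR-31* and miR-1914*. For the other 7 it was higher, on each array where the star was detected. miR-29b-1* had a total of 834 on the first non-MG array, where its own probes summed to 13.5, and the excess of 820 equalled the signal of miR-29a on that array. For miR-17* the excess equalled the miR-16 signal on all 3 arrays, for miR-16-2* that of miR-15b, and for miR-221* that of its own guide miR-221.

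Of the 19 totals with an excess, 18 matched the signal of exactly 1 other miRNA within 0.01%. The remaining value, of miR-21* on the first MG array, matched miR-20b and miR-128, and miR-20b was the match of miR-21* on the other 3 arrays. The miR-9* excess matched miR-886-3p, and that of miR-7-1* matched miR-660 on the replicate 1 arrays and miR-638 on the replicate 2 arrays. These partners were named after their values were seen. From the totals, miR-29b-1* would be 454% to 692% of its guide and miR-17* 139% to 208%, against 8.56% to 11.3% and 2.20% to 3.11% from their own probes.

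**Figure D5:**
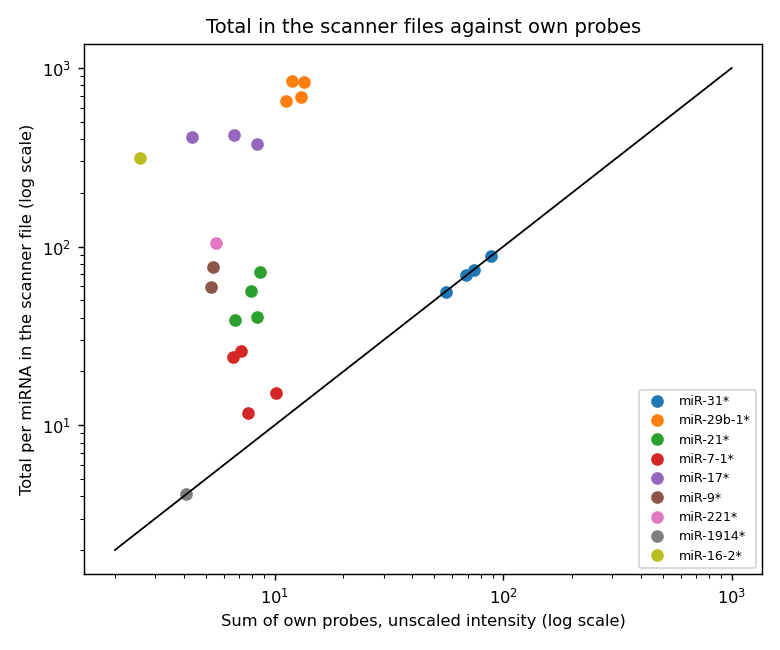
Total per miRNA in the scanner file against the summed signal of its own probes, both in unscaled intensity on log axes, 1 point for each array with the star detected. The line marks equality, on which miR-31* and miR-1914* lie. The other 7 lie above it, with miR-29b-1* highest, at totals of 653 to 842.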

How the data were processed

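Total RNA from HCT116 cells was measured on 1-colour Agilent human miRNA arrays, 2 of MG and 2 of non-MG cells. The labels describe cRNA amplification with Cy3, a protocol for gene expression arrays rather than miRNA arrays, and which labelling was used here could not be settled. The authors deposited scanner files from Agilent Feature Extraction 10.7.1.1, which hold background-subtracted intensity values without normalization between arrays, and a table of 1 intensity per miRNA and array, at 0.1 where undetected. GeneSpring was used by the authors, and no normalization is given in the sources used here. Detection flags in the deposited files were used for alternatives.

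The signal was the sum of a miRNA's probes above 3 times their error, which equalled the values in the authors' table, within 0.05%, in each of the 142 detected miRNAs. It replaced the total in the scanner files, which was tried as an alternative. Table names were matched to newer scanner names by their 4 values, and 89 of the 170 star miRNAs were resolved in this way or through the arm left over by a matched guide. Each array was scaled by its 75th percentile over the 116 miRNAs that every array detected, and log2 was taken after a floor of 1. Groups were compared with limma 3.58.1 in R 4.3.3 (lmFit and eBayes, two-sided, Benjamini-Hochberg over all miRNAs fitted), with an intensity trend for the 115 miRNAs and for the ratios and none for the 57. The functions were tested on simulated data. Python 3.11.15 with pandas 2.3.3 was used to read the files. Sequences and host genes came from RefSeq, GRCh38.p14. The number of arrays limits the precision.

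Named with values were the star miRNAs detected on all 4 arrays and their guides, those on 1 to 3 arrays by their highest signal, and guides of other star hairpins. The members and lists were chosen with earlier results of these data known. Alternatives covered detection, signal summary, normexp with an offset of 50 on the median spot signal, scaling, filters, floor, trend, the replicate block and each array left out.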

Additional observations from a re-analysis of the deposited data

How the results depend on the processing

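No star miRNA was called under any of the 16 alternatives to the fit of 115 miRNAs, and the fold change of miR-31* stayed below 1 in all 16 (0.706 to 0.935, adjusted p 0.213 to 0.943). Quantile normalization turned the fold change of miR-21* to 1.07, of miR-29b-1* to 1.12 and of miR-7-1* to 1.03. With each array left out, miR-21* ranged from 0.821 to 1.00, miR-29b-1* from 0.903 to 1.01 and miR-7-1* from 0.770 to 1.07, and the direction turned without 1 array each (miR-21* 1.002 without the second non-MG array, miR-29b-1* 1.012 without the second MG array, miR-7-1* 1.07 without the first non-MG array). With a floor of 10, miR-21* and miR-7-1* lay at the floor on all arrays and gave no value. Not every alternative could test each star. The authors' table held the values of the main fit, within 0.05%. A minimum signal of 20 kept miR-31* as the only star. For miR-21*, miR-29b-1* and miR-7-1* the totals included the signal of another miRNA. The normexp offset of 50 lay above their own signals, and their fold changes with it were 0.9925, 0.9962 and 0.9853, in that order. Among the guides, miR-31 and miR-17 stayed below 1 and lost their call in 9 of 16 alternatives each. The fold change of miR-16 turned to 1.001 with normexp and 1.03 with median scaling, and that of miR-21 to 1.004 and 1.02. Under quantile normalization miR-21 was called, at a fold change of 0.914 (adjusted p 4.1e-08 in limma). With each array left out miR-16 ranged from 0.966 to 1.03, miR-21 from 0.885 to 1.10 and miR-29b from 0.738 to 1.09. The log2 ratio change turned to 0.22 for miR-21* under quantile normalization and to -0.16 for miR-29b-1* with the totals in the scanner files. With all probes summed it was 0.01 for miR-7-1*, -0.09 for miR-21*, 0.08 for miR-29b-1* and 0.14 for miR-31*. With each array left out it ranged from -0.11 to 0.39 for miR-31*, from -0.11 to 0.29 for miR-29b-1* and from -0.03 to 0.26 for miR-7-1* (-0.025 without the second non-MG array and -0.02 without the second MG array). The number of ratios called was 0, and 1 under quantile normalization, which was not that of a star hairpin. With the replicate block 1 ratio was called, that of miR-31* (adjusted p 0.048 in limma).

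The 9 detected star miRNAs became 4 when most spots (0.5 or more) had to be well above background, 4 with detection on all arrays required and 5 with the common threshold, and 7 to 9 with each array left out. The 24 calls among 115 miRNAs became 1 with the totals, 12 with quantile normalization, 2 without a filter on detection, 2 with a floor of 10, 11 without the trend and 0 to 14 with each array left out (0 without either non-MG array). The 14 calls among 57 became 0 with the totals, 6 without normalization, 8 with the replicate block, 9 with a minimum of 100 and 3 to 11 with each array left out. The deviations of same-numbered arrays from their group means correlated at 0.263 over 115 miRNAs, and with 2 pairs the numbers do not establish a pairing. Why they moved was not tested. Scaling over all miRNAs (whose 75th percentile is the undetected value) and slide as a block (1 slide) were not run. Over the 115 miRNAs the median log2 change was -0.11, and it was -0.06 with median scaling and -0.02 with quantile normalization.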

Other observations

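Below the threshold, the 80 undetected star miRNAs with a settled array name had a median of the mean probe signal of -0.73 and -0.93 in non-MG cells and -0.79 and -0.86 in MG cells. The mean probe signal was above 0 for 6.25% to 12.5% of them. For the 85 undetected viral miRNAs the median was lower on every array, -1.22 and -1.44 in non-MG cells and -1.36 and -1.39 in MG cells. Of these viral miRNAs, 0% to 5.88% were above 0. Why the medians differed was not tested.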
